A study of Homo sapiens with 8 samples.

Results

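The genes examined here were HMGCS1, IDI1, FDFT1, SQLE, DHCR7, INSIG1 and TMEM97, which act in sterol synthesis, its feedback control or the handling of LDL cholesterol. They were chosen by name, with earlier results of these data known. Their rows are those of the deposited values whose Ensembl identifier maps to these symbols, and all 7 of 7 were found among 63241 identifiers. All 7 passed the filter on low values, which asked for 1 FPKM or more in 2 or more libraries, as did 15173 of the identifiers in all. FPKM counts fragments per unit of transcript length and of mapped fragments, so it is already scaled for depth and for gene length. Its sum over all genes still differed between the libraries, as given below.

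mRNA was sequenced from HepG2 and Huh7, established human liver cancer lines. WT cells were the parental, sorafenib-sensitive cells, labelled as controls. SR cells were derived from them by exposure to rising concentrations of sorafenib, a multikinase inhibitor used against liver cancer, and are labelled as sorafenib-treated. WT and SR of either line made 4 groups with 2 libraries each, 8 in all, and were grown in medium with fetal bovine serum, which itself supplies LDL cholesterol. The labels do not say whether the 2 libraries of a group came from separate cultures, so p-values measure only the spread between these libraries, and they do not say whether sorafenib was present when RNA was taken.

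Cholesterol is built from acetyl-CoA through mevalonate and isoprenoid diphosphates to squalene, which is then closed to a sterol ring and trimmed to cholesterol. When sterols in the endoplasmic reticulum run low, SCAP carries the transcription factor SREBP-2, product of SREBF2, to the Golgi, where it is cut and released to switch on the genes of synthesis and of LDL uptake. When sterols are plentiful, the INSIG proteins hold SCAP back, so the pathway and the uptake of LDL are normally turned up or down together.

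Promoters of SREBP targets are known to carry boxes for NF-Y and Sp1, factors that act with SREBP. The stretches just before 4 members are shown, those with a listed promoter window that spans the gene start. They were taken from RefSeq promoter windows on GRCh38.p14 and cut to end at the gene start of GENCODE 29. Each reads 5′ to 3′ along the gene's own strand. Capitals mark CCAAT or GGGCGG on either strand, that is also ATTGG and CCGCCC, and overlapping copies run together. HMGCS1 is at chr5:43313513-43313662 on the minus strand, IDI1 at chr10:1049171-1049369 on the minus strand, INSIG1 at chr7:155297628-155297775 on the plus strand and TMEM97 at chr17:28318950-28319094 on the plus strand.
HMGCS1: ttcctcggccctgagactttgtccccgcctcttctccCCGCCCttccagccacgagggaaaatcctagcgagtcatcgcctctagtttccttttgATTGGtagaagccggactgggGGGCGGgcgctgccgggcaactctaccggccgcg
IDI1: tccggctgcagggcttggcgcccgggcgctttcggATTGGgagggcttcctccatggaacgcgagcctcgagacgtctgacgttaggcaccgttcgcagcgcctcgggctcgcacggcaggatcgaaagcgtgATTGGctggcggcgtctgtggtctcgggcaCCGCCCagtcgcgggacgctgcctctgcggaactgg
INSIG1: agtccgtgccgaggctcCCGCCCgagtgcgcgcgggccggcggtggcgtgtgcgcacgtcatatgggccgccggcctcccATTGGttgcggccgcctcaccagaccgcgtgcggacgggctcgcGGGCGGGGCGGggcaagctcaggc
TMEM97: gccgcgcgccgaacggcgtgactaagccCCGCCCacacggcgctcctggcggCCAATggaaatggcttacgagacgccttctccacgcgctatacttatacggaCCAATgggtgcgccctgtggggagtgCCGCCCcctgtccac

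The stretch of HMGCS1 held 1 CCAAT box, those of IDI1 and TMEM97 held 2 each and that of INSIG1 held 1. They held 2, 1, 2 and 3 GGGCGG boxes for HMGCS1, IDI1, TMEM97 and INSIG1. For comparison, CCAAT was found at least 1 time in 34.6% and GGGCGG in 45% of the 35116 promoter windows of 300 bases in the table. CCAAT was found 2 or more times in 10.8% of them. Those windows are longer than the stretches shown, so the shares are not for a like length. TCACNCCAC, one spelling of the sterol response element, was found in 1.13% of those windows and in none of the windows listed for HMGCS1, IDI1, DHCR7, INSIG1 and TMEM97. The table also lists other windows for 3 of these genes. The further HMGCS1 window held 0 CCAAT and 2 GGGCGG boxes, the 2 further IDI1 windows held 0 and 3 CCAAT and 4 and 3 GGGCGG boxes, and of the 2 DHCR7 windows one held 2 CCAAT and 4 GGGCGG boxes and the other 0 of either. These matches describe letters only, since no binding was measured. FDFT1 and SQLE were not among the entries.

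The 8 libraries did not sort by the labelled cell line. Libraries were joined where their log2(FPKM + 1) values had a Pearson correlation over 0.9 across genes. Both HepG2 WT libraries, HepG2 SR 1, and the second library of either Huh7 group (WT 2 and SR 2) formed a set of 5 of like expression. Huh7 WT 1 and Huh7 SR 1 formed a pair, and HepG2 SR 2 stood alone. MAGEA4, a cancer-testis antigen, was at 237 and 346 FPKM in that pair and listed at 0 in the other 6. KRT19, a bile duct and progenitor keratin, was between 155 and 760 FPKM in the set of 5 and at most 2.37 FPKM in the other 3. The hepatocyte marker ALB was present in every library, from 12 FPKM in Huh7 WT 1 to 4713 FPKM in HepG2 SR 2, and 8 of 10 hepatocyte markers were at 1 FPKM or more in every library. Their sum over the 10 was 5508 and 7750 FPKM in HepG2 WT, 7998 and 8065 FPKM in HepG2 SR, 734 and 2082 FPKM in Huh7 WT, and 1193 and 7739 FPKM in Huh7 SR, each pair given from low to high. Of 10 markers of blood, vessel and stromal cells, DCN, PTPRC, VWF and HBB were under 1 FPKM in every library. ACTA2 was between 24.9 and 57.6 FPKM in the set of 5 and at most 0.0349 FPKM in the other 3. CD68 was between 3.94 and 29.1 FPKM, PECAM1 between 0.517 and 4.28 FPKM and COL1A1 between 0.0503 and 1.67 FPKM. COL1A2 was at 8.28 FPKM in HepG2 SR 2 and at most 0.519 FPKM elsewhere. Summed, those 10 stood between 303 and 348 FPKM in HepG2 WT, between 834 and 946 FPKM in HepG2 SR, between 66.1 and 99.7 FPKM in Huh7 WT, and at 86.7 and 1107 FPKM in Huh7 SR. LYZ, lysozyme, stood at 44.2 to 1058 FPKM among them, and the part of these markers in the results below was not tested. Read totals were not recovered from the FPKM values, so the depth behind each value is unknown. FPKM summed over all genes lay between 384792 and 403905 in the WT libraries and between 411763 and 429111 in the SR libraries. Every SR library thus had a larger sum than every WT library, an offset towards higher values in SR. The number of genes at 1 FPKM or more lay between 12829 and 13386 in every library. The number above 0 was 38276 in HepG2 WT 2 and between 27188 and 29071 in every other library, and the cause was not tested. Huh7 SR 2 had a higher correlation with HepG2 SR 1 (0.977) and HepG2 WT 2 (0.962) than with Huh7 WT 2 (0.914). These values go against the labelled cell line, and whether a library carries the wrong label or is a mixture was not tested, so every Huh7 difference and every difference between the cell lines is one between libraries labelled as such. Every group below is that of the labels, and values are also given between libraries of like expression.

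SR was compared with WT by limma on log2(FPKM + 1), fitting 4 group means to the 8 libraries together. A fold change on that scale is smaller than the change in FPKM where expression is weak, as for INSIG1. A gene was called at the thresholds of the study, with an unadjusted p under 0.05 together with a log2 difference that was 0.5 or more, or under -0.5. All 7 genes were higher in SR than in WT in HepG2 and all 7 in Huh7, where 47.6% and 44.7% of all genes tested were higher. Since the 7 were chosen with earlier results of these data known, the shares of all genes given here and below are no test of them. The median log2 fold change of the 7 was 1.05 in HepG2 and 0.48 in Huh7, and that of all genes tested was -0.03 and -0.05. With libraries rescaled to a common sum of FPKM, all 7 stayed higher in each cell line. The medians were then 0.95 and 0.39, and those of all genes tested -0.103 and -0.123. In Huh7, 3 of 7 were higher without SR 1, with a median of -0.02, and 5 of 7 without WT 2. Without SR 1, SR 2 is set against both WT libraries, of which WT 1 is of another expression set. Against WT 2 alone, 1 library against 1, all 7 were higher in SR 2, with a median of 0.18. In that difference 6274 of 15173 genes tested were higher. INSIG1 was near 0 in both libraries, at 0.0225 FPKM in SR 2 and 0.0143 FPKM in WT 2. HMGCS1 and SQLE differed by 0.09 each. FPKM summed to 424869 in SR 2 and 403905 in WT 2, which these differences do not allow for. In HepG2, 5 of 7 were higher without SR 1, and 6 of 7 without WT 1 or without SR 2. Of the 7, 2 were called in HepG2, HMGCS1 and TMEM97, against a background of 2.14% of all genes tested. In Huh7, 0 of 7 were called, against a background of 1.87%, with limma. After Benjamini-Hochberg adjustment limma left 0 genes under 0.05 in either cell line, the 7 included, against 325 (HepG2) and 283 (Huh7) before adjustment. Of all genes tested, 0.877% were called higher and 1.27% lower in HepG2, and 0.942% and 0.923% in Huh7. Rescaling the libraries to a common sum turned the HepG2 split of 133 higher and 192 lower genes into 88 and 263, and the Huh7 split of 143 and 140 into 104 and 211. Since each library is a bulk sample, fewer cells of a type and less RNA per cell cannot be told apart.

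**Figure D1:**
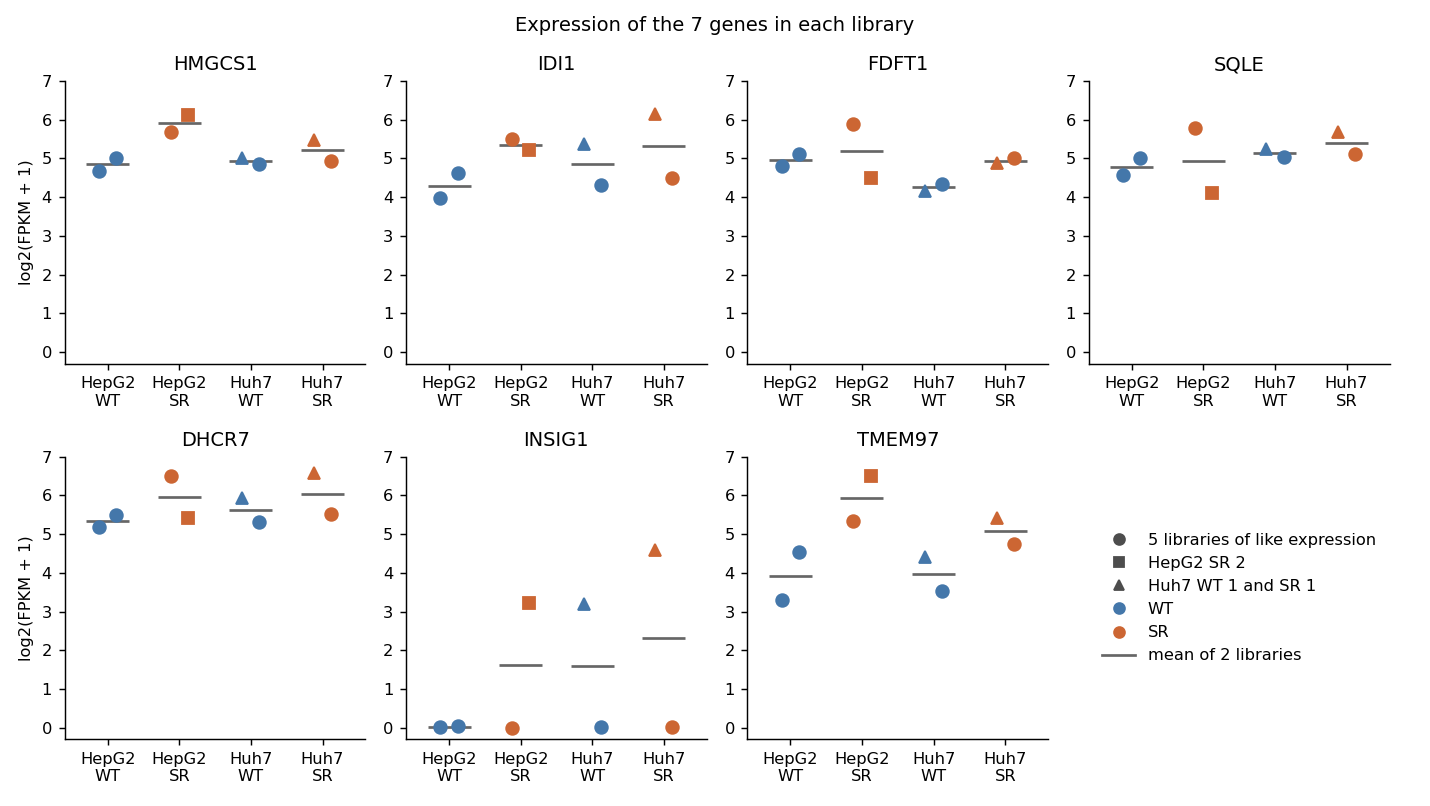
Expression of the 7 genes as log2(FPKM + 1) in each of the 8 libraries, by group on the horizontal axis, with WT in blue, SR in orange and a line at the mean of the 2 libraries of each group. Marker shapes show the set of 5 libraries of like expression, HepG2 SR 2, and Huh7 WT 1 with SR 1. TMEM97 is the 1 gene of the 7 with all 4 SR libraries above all 4 WT libraries, and INSIG1 is near 0 in all 5 circles.

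HMGCS1 (ENSG00000112972, chromosome 5 of GRCh38 from 43289395 to 43313512, minus strand) encodes the synthase that makes HMG-CoA, the precursor of mevalonate. HepG2 WT libraries had 24.5 and 31.4 FPKM of it, and HepG2 SR libraries 50.1 and 69.3 FPKM. Huh7 WT libraries had 31.4 and 27.8 FPKM, and Huh7 SR libraries 43.9 and 29.7 FPKM. The HepG2 groups did not overlap, whereas Huh7 SR 2 lay between the Huh7 WT libraries. Such separation of 2 against 2 libraries, here and for the genes below, is a description. It cannot give a p below 0.333 by an exact permutation test, and its share among all genes was not counted. The log2 fold change was 1.06 (standard error 0.35, adjusted p = 0.956 from limma) in HepG2, where it was called, and 0.28 (standard error 0.35) in Huh7. The HepG2 call was lost without HepG2 WT 1, at 0.89, and without HepG2 SR 2, at 0.83. HMGCS1 overlaps an antisense gene, AC114947.2, and no source used here says that strand was used in counting, so reads of the 2 genes cannot be told apart.

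IDI1 (ENSG00000067064, chromosome 10 from 1039152 to 1049170, minus strand) encodes the isomerase that makes dimethylallyl diphosphate, the starter unit of isoprenoid chains. Its level was 14.8 and 23.6 FPKM in the HepG2 WT libraries, against 44.1 and 36.1 FPKM in HepG2 SR. For Huh7 the levels were 40.3 and 19.0 FPKM in WT, against 69.6 and 21.7 FPKM in SR. The HepG2 SR libraries were both above the WT libraries, and in Huh7 the first library of each group was high and the second low. The log2 fold change was 1.05 (standard error 0.62) in HepG2 and 0.48 (standard error 0.62) in Huh7, and neither was called. IDI1 overlaps the antisense gene IDI2-AS1.

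FDFT1 (ENSG00000079459, chromosome 8 from 11795573 to 11839309, plus strand) encodes squalene synthase, the first enzyme committed to sterols. HepG2 WT had 27.2 and 33.8 FPKM, and HepG2 SR 58.1 and 21.4 FPKM, so that the SR libraries lay on either side of WT. Huh7 WT had 16.8 and 19.4 FPKM, and Huh7 SR 28.5 and 31.2 FPKM, with no overlap. The log2 fold change was 0.22 (standard error 0.48) in HepG2 and 0.70 (standard error 0.48) in Huh7. It was -0.48 in HepG2 without SR 1 and 0.92 without SR 2. A lincRNA gene, AC069185.1, overlaps FDFT1 on the opposite strand.

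SQLE (ENSG00000104549, chromosome 8 from 124998497 to 125022283, plus strand) encodes squalene epoxidase, which adds the oxygen needed for ring closure. HepG2 WT had 22.6 and 31.5 FPKM, and HepG2 SR 53.8 and 16.3 FPKM, the second SR library being the lowest of the 8. Huh7 WT had 36.7 and 31.7 FPKM, and Huh7 SR 50.5 and 33.7 FPKM, and the groups overlapped. The log2 fold changes of 0.15 (standard error 0.57) in HepG2 and 0.27 (standard error 0.57) in Huh7 were within the spread between libraries. In HepG2 the value was -0.68 without SR 1, -0.08 without WT 1 and 0.98 without SR 2.

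DHCR7 (ENSG00000172893, chromosome 11 from 71428193 to 71452868, minus strand) encodes the reductase that turns 7-dehydrocholesterol into cholesterol. The HepG2 libraries had 35.4 and 43.8 FPKM when WT, and 90.3 and 41.7 FPKM when SR. The Huh7 libraries had 60.4 and 38.8 FPKM when WT, and 94.0 and 44.7 FPKM when SR. HepG2 SR 1 and Huh7 SR 1 were the 2 highest libraries, and the other SR libraries lay within the WT range. The log2 fold change was 0.63 (standard error 0.53) in HepG2 and 0.41 (standard error 0.53) in Huh7, with neither called. DHCR7 overlaps the antisense gene AP002387.1.

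INSIG1 (ENSG00000186480, chromosome 7 from 155297776 to 155310235, plus strand) encodes the sterol-sensing retention factor of SCAP and is itself a target of SREBP. HepG2 WT had 0.0119 and 0.0285 FPKM, HepG2 SR 1 was listed at 0 and HepG2 SR 2 had 8.39 FPKM. Huh7 WT had 8.11 and 0.0143 FPKM, and Huh7 SR 23.3 and 0.0225 FPKM. INSIG1 followed the sets of like expression and not the labels, with at most 0.0285 FPKM in the set of 5 and at least 8.11 FPKM in the other 3 libraries. The log2 fold change was 1.59 in HepG2 and 0.71 in Huh7, each with a standard error of 1.77, and it was -0.03 in HepG2 without SR 2 and -1.57 in Huh7 without SR 1.

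INSIG2 (ENSG00000125629) encodes the other INSIG protein, and its levels lay in the opposite order across those sets. Its level was 31.6, 31.7, 38.3, 21.0 and 60.1 FPKM in HepG2 WT 1, WT 2, SR 1, Huh7 WT 2 and Huh7 SR 2. HepG2 SR 2 had 11.9 FPKM of it, against 7.21 and 4.94 FPKM in Huh7 WT 1 and SR 1. Every library with INSIG1 near 0 therefore had more INSIG2 than any library that expressed INSIG1, a description of sets that were themselves defined from expression. Among the genes listed within 1000 kb of INSIG1, the protein-coding genes PAXIP1 at 295 kb and RBM33 at 334 kb lay between 4.5 and 9.73 FPKM and between 7.3 and 15 FPKM across all 8 libraries and were expressed in every library, unlike INSIG1. The non-coding genes PAXIP1-AS1, at 292 kb, and AC009403.1, at 301 kb, were also expressed in every library, between 1.61 and 4.4 FPKM and between 2.97 and 5.79 FPKM. AC021218.1, a lincRNA gene at 652 kb, followed the sets in the opposite direction to INSIG1, with 5.28 to 14.7 FPKM in the set of 5, 0.0145 FPKM in HepG2 SR 2, and a listing at 0 in Huh7 WT 1 and SR 1. SHH, at 490 kb, stood at 0.0140 FPKM in Huh7 WT 1, was listed at 0 in Huh7 SR 1, and lay between 2.09 and 8.20 FPKM in the other 6 libraries.

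**Figure D2:**
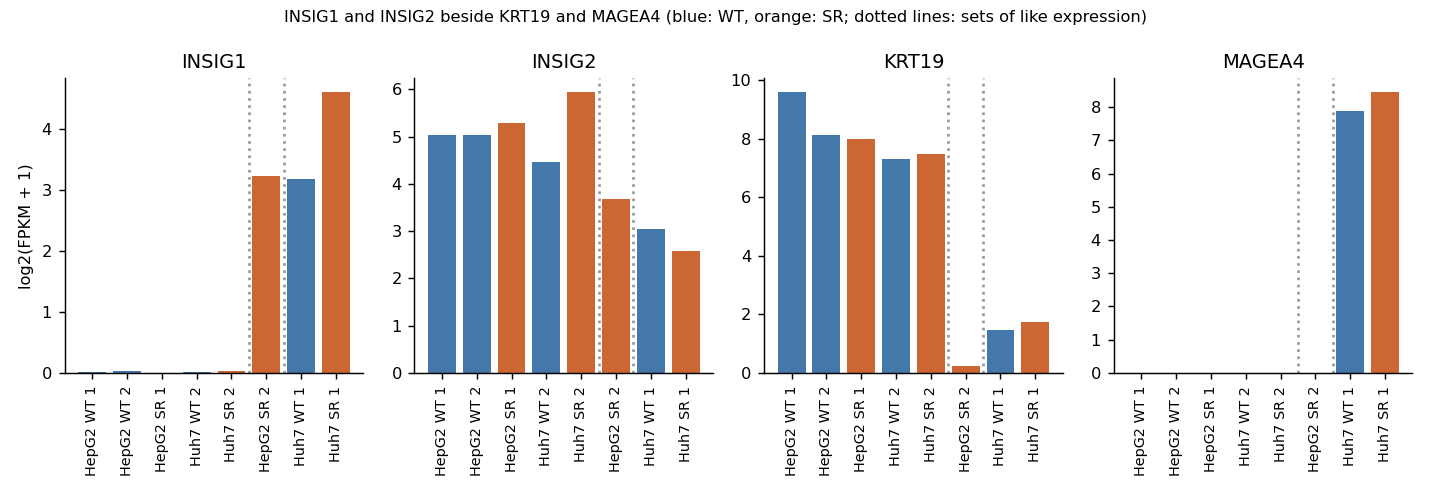
Levels of INSIG1, INSIG2, KRT19 and MAGEA4 as log2(FPKM + 1) in each library, WT in blue and SR in orange, with dotted lines between the sets of like expression. INSIG1 is at or below 0.0285 FPKM in the 5 libraries with high KRT19, where INSIG2 is between 21.0 and 60.1 FPKM.

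TMEM97 (ENSG00000109084, chromosome 17 from 28319095 to 28328685, plus strand) encodes the sigma-2 receptor, a membrane protein that binds NPC1 and takes part in LDL uptake. It was measured at 8.85 and 22.1 FPKM in the HepG2 WT libraries, and at 39.5 and 90 FPKM in HepG2 SR. The Huh7 WT libraries had 20.1 and 10.5 FPKM, and the Huh7 SR libraries 41.7 and 25.9 FPKM. The SR libraries were above the WT libraries in both cell lines, and the lowest SR library, at 25.9 FPKM, was above the highest WT library, at 22.1 FPKM. The log2 fold change was 2.01 (standard error 0.62, adjusted p = 0.956 from limma) in HepG2, where it was called, and 1.12 (standard error 0.62) in Huh7, where it was not. Leaving out HepG2 WT 1 ended the HepG2 call, at 1.40, as did leaving out HepG2 SR 2, at 1.43. TMEM97 overlaps IFT20 on the opposite strand.

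Over both cell lines, 2 of 7 genes were called, TMEM97 and HMGCS1, against a background of 3.93% of all genes tested, 1.9% higher and 2.03% lower. All 7 were higher at any p, as were 44.9% of all genes tested. The mean log2 fold change of TMEM97 was 1.57 (standard error 0.44, adjusted p = 0.998 from limma) and stayed between 1.26 and 1.87, and called, with each library left out in turn. HMGCS1 had 0.67 (standard error 0.25, adjusted p = 0.998 from limma), between 0.53 and 0.81, and its call held only without HepG2 SR 1 or without Huh7 SR 2. For IDI1, DHCR7, FDFT1, SQLE and INSIG1 the mean log2 fold change was 0.76, 0.52, 0.46, 0.21 and 1.15, and none was called. A two-sided exact permutation test of the 4 SR against the 4 WT libraries gave p = 0.0286 for TMEM97, the smallest that 70 splits allow. Labels were exchanged across both cell lines, although SR was derived from WT within each. Splits that keep 2 SR libraries in each cell line are fewer and allow no p that small. The 7 genes were also chosen with earlier results of these data known, so these p-values describe them. The same exact test gave p = 0.0857 for HMGCS1 and a p between 0.143 and 0.571 for the other 5. All 4 SR libraries lay above all 4 WT libraries in 1.52% of all genes tested and below them in 2.17%. Within a single cell line, 2 against 2 libraries could not give a p below 0.333 by an exact permutation test.

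Whether the SR and WT difference of these genes was unequal in Huh7 and HepG2 was asked with an interaction term in limma, and 0 of 7 genes were called, against a background of 0.606%. For HMGCS1 the log2 fold change in Huh7 less that in HepG2 was -0.78 (standard error 0.50), and for TMEM97 it was -0.88 (standard error 0.87). Between the WT groups, Huh7 against HepG2, 0 of 7 were called, against a background of 4.41%, with log2 differences between -0.72 for FDFT1 and 1.58 for INSIG1. A p above the threshold does not show that the cell lines were alike.

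Because expression did not follow the labels, SR was also set against WT between libraries of like expression, in a comparison chosen after the values were seen. HepG2 SR 1 was set against the mean of the HepG2 WT libraries, Huh7 SR 2 against Huh7 WT 2, and Huh7 SR 1 against Huh7 WT 1. These 3 differences share no library, although each rests on 1 SR library and has no test. All members but INSIG1 were higher in SR in all 3, 6 of 7, as were 16.0% of all genes tested. TMEM97 was higher by 1.43, 1.23 and 1.02 on the log2 scale and FDFT1 by 0.92, 0.66 and 0.73. Those 2 were at least 0.5 higher in all 3, as were 1.92% of all genes tested.

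For IDI1, DHCR7, SQLE and HMGCS1 the differences were larger in HepG2 SR 1 and Huh7 SR 1 than in Huh7 SR 2. IDI1 differed by 1.19, 0.18 and 0.77, DHCR7 by 1.18, 0.20 and 0.63, SQLE by 0.98, 0.09 and 0.45, and HMGCS1 by 0.83, 0.09 and 0.47. INSIG1 differed by -0.03, 0.01 and 1.42. In Huh7 SR 2 against Huh7 WT 2, 2 of 7 genes were at least 0.5 higher, against 18.0% of all genes tested, and the median of the 7 was 0.18. In HepG2 SR 1, 6 of 7 were at least 0.5 higher, against 9.69%, and in Huh7 SR 1, 5 of 7 were, against 13.9%.

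HepG2 SR 2 had no WT library of like expression. Against the mean of the HepG2 WT libraries it differed by 3.2 in INSIG1, 2.59 in TMEM97, 1.29 in HMGCS1, 0.91 in IDI1 and 0.08 in DHCR7, and by -0.48 in FDFT1 and -0.68 in SQLE. Of the 7, 4 were at least 0.5 higher, against 26.6% of all genes tested, and the enzymes that make and oxidize squalene were below WT, unlike in HepG2 SR 1. AFP, the fetal liver protein, was at 1100 FPKM in this library and at most 35.8 FPKM in the other 7. The fibrinogen gene FGB was at 128 FPKM in it, against at most 4.51 FPKM in the other HepG2 libraries, and was at 380 and 327 FPKM in Huh7 WT 1 and SR 1. The part of these differences in its sterol gene levels was not tested.

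**Figure D3:**
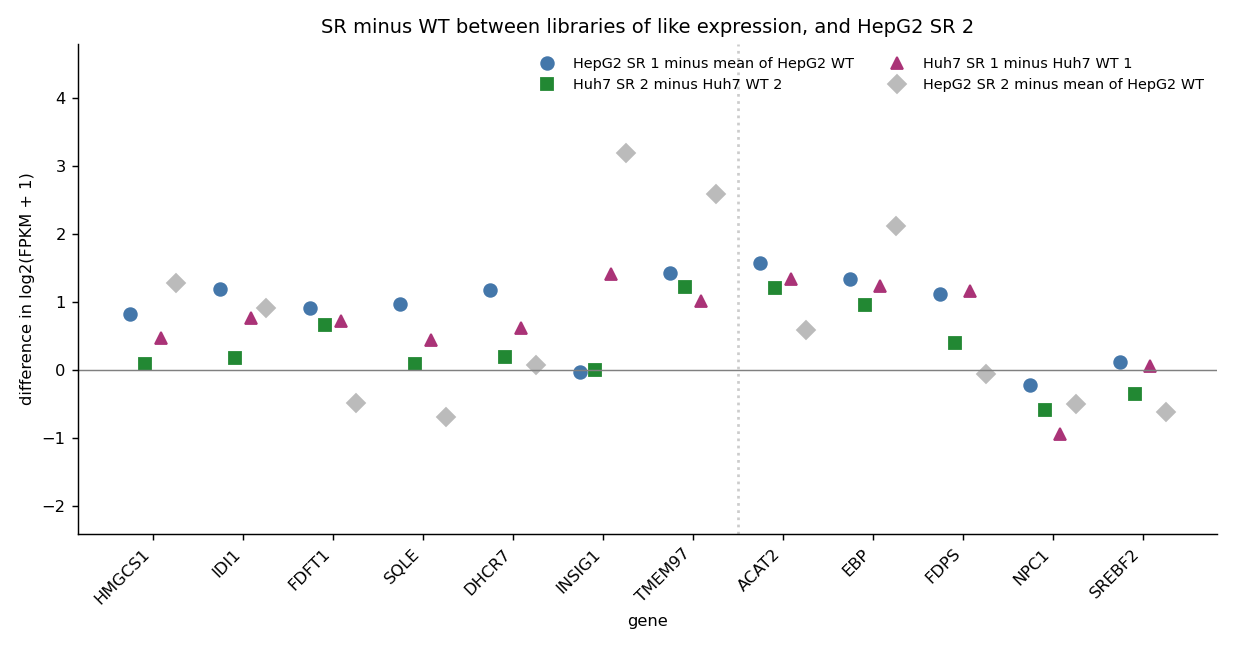
Differences between SR and WT in log2(FPKM + 1) for the 7 genes and, right of the dotted line, 5 other genes of the pathway, between libraries of like expression (colours) and for HepG2 SR 2 against the mean of the HepG2 WT libraries (grey). All members but INSIG1 lie above 0 in the 3 coloured differences, and TMEM97, ACAT2 and EBP lie near or above 1 in each.

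With the expression set as a term in the limma model, a fit in which HepG2 SR 2 carries no weight and 2 residual degrees of freedom remain, 5 of 7 genes were called in HepG2 and 2 of 7 in Huh7. The background in that fit was 3.11% of all genes tested in HepG2 and 8.57% in Huh7. In HepG2 these were IDI1, FDFT1, SQLE, DHCR7 and TMEM97, with log2 fold changes between 0.92 and 1.43, and HMGCS1, at 0.83, was not. In Huh7 they were FDFT1, at 0.70 (standard error 0.28), and TMEM97, at 1.12 (standard error 0.43). Over both cell lines 6 of 7 were called, against a background of 8.46%, with log2 fold changes from 0.56 for HMGCS1 (standard error 0.23) to 1.28 for TMEM97 (standard error 0.34). The exception was INSIG1. After adjustment over all genes limma called 0 of them, with adjusted p between 0.533 and 0.566 over both cell lines.

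The wider pathway was described with 47 further genes, of which 45 passed the filter, grouped by role. The percentages of all genes called given above are the background for these counts. Over both cell lines 2 of these 45 were called higher and 1 lower, and their median log2 fold change was 0.05. In HepG2, 1 was called higher and 0 lower. In Huh7, 1 was called higher and 1 lower. Of all 52 pathway genes that passed the filter, members included, 4 had every SR library above every WT library and 1 had every SR library below. Among all genes tested these shares were 1.52% and 2.17%. The separations are of FPKM as deposited, and those of EBP and NR1H3 do not hold per summed FPKM. Such separation was itself a ground for naming a gene, and it fixes the exact permutation p, so no such p is given for the further genes.

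In the mevalonate arm, described with 7 genes from ACAT2 to FDPS that include HMGCS1 and IDI1, 6 of 7 were higher in HepG2 SR and 6 of 7 in Huh7 SR, with 1 called in each, HMGCS1 in HepG2 and ACAT2 in Huh7. The median log2 fold change was 0.80 in HepG2 and 0.45 in Huh7. Without the members, 4 of 5 were higher in each cell line, the medians were 0.53 and 0.45, and 0 were called in HepG2 by limma. Against the mean of the HepG2 WT libraries, 4 of those 5 were higher in HepG2 SR 1 and 2 in HepG2 SR 2. The medians were 1.12 and -0.05. In Huh7, 5 were higher in SR 1 against WT 1 and 3 in SR 2 against WT 2, with medians of 0.84 and 0.29. ACAT2, the cytosolic thiolase that starts the pathway, had 42.6 and 44.1 FPKM in the HepG2 WT libraries, against 131 and 66.2 FPKM in SR. Its Huh7 levels were 34.0 and 20.2 FPKM in WT, against 88.0 and 48.1 FPKM in SR. ACAT2 was thus higher in every SR library than in every WT library. It was called in Huh7, at 1.28 (standard error 0.49, adjusted p = 1.0 from limma), and over both cell lines, at 1.18 (standard error 0.35, adjusted p = 0.998 from limma). The Huh7 call was lost without any 1 of HepG2 WT 1, HepG2 WT 2, Huh7 WT 2 and Huh7 SR 1, down to 0.85, also with libraries rescaled to a common sum, at 1.19, and with each cell line fitted alone. ACAT2 overlaps SOD2 and TCP1 on the opposite strand.

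FDPS, which makes farnesyl diphosphate, was higher in HepG2 SR 1, at 153 FPKM, and Huh7 SR 1, at 194 FPKM, than in the other 6 libraries, which lay between 56.0 and 86.0 FPKM.

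In the squalene and sterol arm, 12 of 12 genes were higher in HepG2 SR and 11 of 12 in Huh7 SR, with medians of 0.23 and 0.34. These include FDFT1, SQLE and DHCR7, without which 9 of 9 and 8 of 9 were higher, with medians of 0.23 and 0.18. Against the mean of the HepG2 WT libraries, 12 of 12 were higher in HepG2 SR 1, but 4 of 12 in HepG2 SR 2. The medians were 0.72 and -0.18. Against Huh7 WT 1, 11 of 12 were higher in Huh7 SR 1. Against Huh7 WT 2, 7 of 12 were higher in Huh7 SR 2, or 4 of 9 without the members. Of all genes tested, 7145 of 15173 were higher in HepG2 SR 2 and 6274 in Huh7 SR 2. The gene called in HepG2 was EBP, which shifts a double bond in the sterol ring, and 0 were called in Huh7. EBP had 26.3 and 40.8 FPKM in the HepG2 WT libraries, against 85.4 and 146 FPKM in SR. For Huh7 it had 44.5 and 22.9 FPKM in WT, against 107 and 45.7 FPKM in SR. Every SR library was above every WT library, though by little, the nearest being 45.7 and 44.5 FPKM. These were Huh7 SR 2 and Huh7 WT 1, whose FPKM summed to 424869 and 385498. Per summed FPKM the order of those libraries does not hold. Its log2 fold change was 1.74 (standard error 0.56, adjusted p = 0.956 from limma) in HepG2, 1.10 (standard error 0.56) in Huh7 and 1.42 (standard error 0.40, adjusted p = 0.998 from limma) over both, where it was called. As for TMEM97, the HepG2 call was lost without HepG2 WT 1, at 1.43, and without HepG2 SR 2, at 1.35. With the expression set as a term, 4 of the 12 were called in HepG2, 3 in Huh7 and 6 over both cell lines, each of them higher in SR, against the backgrounds of that fit given above. In HepG2, 3 of the 4 were the members FDFT1, SQLE and DHCR7, and the other was EBP. In Huh7 FDFT1 was called with EBP and TM7SF2.

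The genes of SREBP control were divided in direction. Of 9 genes, 4 were higher in SR in each cell line, the medians were -0.20 in HepG2 and -0.09 in Huh7, and 0 were called, INSIG1 included. With the expression set as a term, 7 of 9 were higher in HepG2, with a median of 0.17, and 4 of 9 in Huh7, with a median of -0.09, and again 0 were called. That HepG2 value is HepG2 SR 1 against the WT libraries, in which 7364 of 15173 genes tested were higher. SREBF2 lay between 35.4 and 51.7 FPKM in the WT libraries and between 27.5 and 46.9 FPKM in the SR libraries, with log2 fold changes of -0.24 (standard error 0.40) in HepG2 and -0.15 (standard error 0.40) in Huh7. SCAP lay between 21.1 and 53.2 FPKM in WT and between 19.9 and 36.7 FPKM in SR, and its log2 fold changes of -0.35 and -0.16 were within their standard errors of 0.38. Transcript levels of these genes do not report how much SREBP was cut.

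Among genes of LDL uptake and cholesterol handling, TMEM97 was the 1 of 8 called higher, in HepG2, and NPC1 the 1 called lower, in Huh7. NPC1, which exports LDL-derived cholesterol from lysosomes, had 29.7 and 27.4 FPKM in the HepG2 WT libraries, against 24.3 and 19.9 FPKM in SR. Its Huh7 levels were 52.7 and 41.2 FPKM in WT and 27.0 FPKM in both SR libraries. Every SR library was below every WT library, the reverse of TMEM97, whose protein binds NPC1. NPC1 was called lower in Huh7, at -0.77 (standard error 0.31, adjusted p = 1.0 from limma), and over both cell lines, at -0.56 (standard error 0.22, adjusted p = 0.998 from limma). Each call was lost with any 1 of 6 libraries left out, all but Huh7 WT 2 and HepG2 SR 1. NPC1 overlaps RMC1 on the opposite strand.

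**Figure D4:**
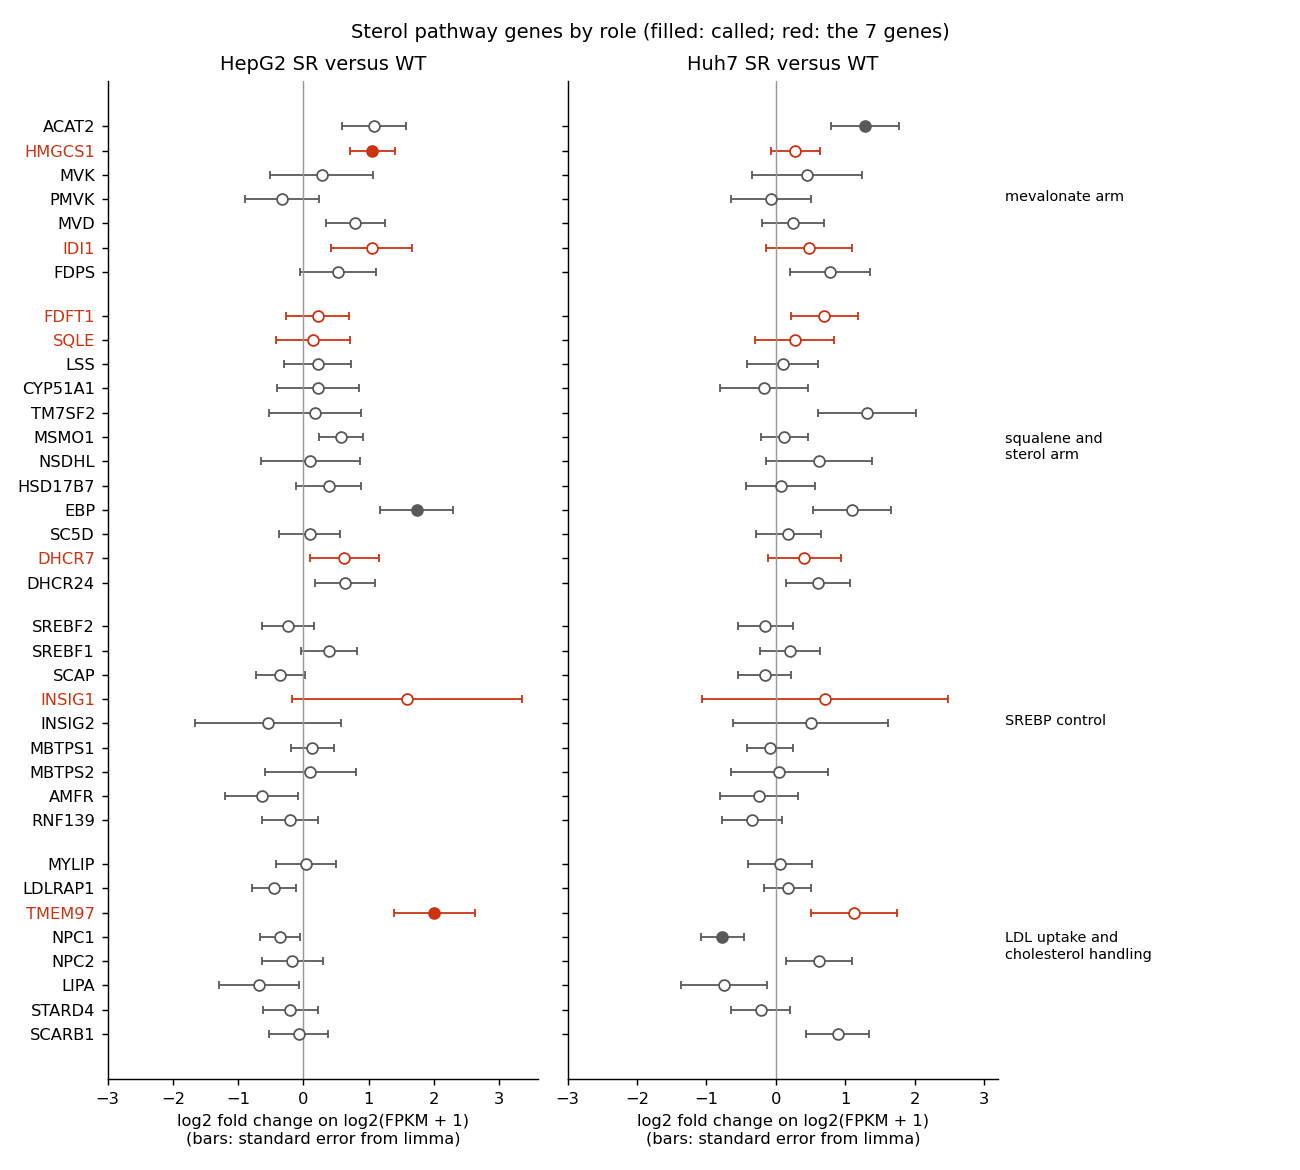
Log2 fold changes of SR against WT with standard errors from limma for 36 genes of the pathway in HepG2 (left) and Huh7 (right), grouped by role, with the 7 members in red and genes called at the thresholds filled. Genes of the mevalonate and sterol arms lie mostly to the right of 0, whereas those of SREBP control lie on both sides and NPC1 lies to the left in both.

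Outside synthesis and uptake, 0 genes of cholesterol efflux, storage and bile acid synthesis and 0 genes of the branches to ubiquinone, dolichol and prenylation were called for SR against WT in either cell line. NR1H3 encodes the sterol receptor LXR alpha. It stood between 7.29 and 10.2 FPKM in WT and between 10.2 and 15 FPKM in SR, with no overlap before rounding. The nearest were HepG2 WT 2 and Huh7 SR 2, whose FPKM summed to 396118 and 424869, so per summed FPKM the groups overlap. Its log2 fold change over both cell lines was 0.52 (standard error 0.23) and was not called.

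Compared between genes, which FPKM allows since it is per length, the mean level over the 8 libraries was highest for DHCR7 and lowest for INSIG1. DHCR7 averaged 56.2 FPKM, HMGCS1 38.5, SQLE 34.6, IDI1 33.7, TMEM97 32.3, FDFT1 29.5 and INSIG1 4.99 FPKM. Within each of the 8 libraries DHCR7 was above FDFT1, SQLE and IDI1, and INSIG1 was the lowest of the 7. DHCR7 was below HMGCS1 and TMEM97 in HepG2 SR 2, at 41.7 FPKM against 69.3 and 90 FPKM. TMEM97 had the widest range of these, from 8.85 to 90 FPKM.

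The genes whose levels over the 8 libraries were most like the mean of the 7 were sought among 9083 genes with a mean of at least 5 FPKM. Pearson's r of log2(FPKM + 1) was used, as a description over 8 libraries that differ in expression set. The mean was not scaled by gene, so INSIG1, with the widest range on the log2 scale, weighs most in it. The closest were RFC5 (r = 0.971), which encodes a subunit of the clamp loader, ENSG00000293495 (r = 0.967), DTYMK (r = 0.961), thymidylate kinase, and RNASEH2A and POLD1 (both r = 0.959), a ribonuclease H subunit and the catalytic subunit of DNA polymerase delta. The rest of the first 10 were TLCD1 (r = 0.956), MRPL30 (r = 0.953), which encodes a mitochondrial ribosomal protein, FOXM1 (r = 0.95), a transcription factor of the cell cycle, PGP (r = 0.95), phosphoglycolate phosphatase, and MCM6 (r = 0.949), of the replicative helicase. None of these 10 was among the 3 genes most like any single member. DHCR7 was most like FDPS (r = 0.963), and SQLE was close to SC5D (r = 0.959), also of the sterol arm. TMEM97 was most like RPL41P5 (r = 0.984) and SNRPA (r = 0.981), and INSIG1 like CDC7 (r = 0.991) and MAGEA6 (r = 0.99), as its levels follow the expression sets.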

How the data were processed

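Per the labels and the study's methods, polyadenylated RNA was enriched on beads, libraries were made with an NEBNext kit, and the authors deposited FPKM per gene and library. Their processing notes name fastp 0.20.0 and GRCh38. The aligner, the counting tool and the annotation are not given in the sources used here. Columns of the authors' comparisons were not used.

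Samples were grouped by label. Symbols matched 62666 of 63241 identifiers (99.1%). Positions came from GENCODE 29 and promoter sequences from RefSeq. log2(FPKM + 1) was fitted with limma 3.58.1 in R 4.3.3 (group means, eBayes with trend) on 15173 genes, which left 4 residual degrees of freedom and gave posterior SDs with a median of 0.48. The study's own test needs counts. Within 0.02 of a whole read lay 7.33% to 8.34% of low values, against 4.0% by chance, so counts were not recovered and no interval was derived. The fits were tested on simulated data with 200 changed genes. The members, the gene lists and the naming rule (all members, SREBF2, SCAP, INSIG2, and pathway genes that were called or whose SR and WT libraries did not overlap) were chosen with earlier results of these data known. Some pathway genes that the rule names are not reported here. Other genes were named after their values were seen. Alternatives were the pseudocount, the filter, the scaling, the variance trend, each cell line alone, the replicate block, the expression set, the call thresholds and each library left out. Other tools were Python 3.11.15 and pandas 2.3.3.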

Additional observations from a re-analysis of the deposited data

Results flagged for a closer look

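INSIG1 stood at 8.11 FPKM in Huh7 WT 1, far from the other 3 WT libraries, which were at or below 0.0285 FPKM. The gap to the nearest of them was 0.998 of the whole range over the 4 WT libraries, past Dixon's 95% critical value for 4. Among 14 such groups examined, chance would put about 1 in 20 past that value. Huh7 WT 1 is also the WT library with MAGEA4 at 237 FPKM and KRT19 at 1.78 FPKM, and the part of that difference in its INSIG1 level was not tested.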

How the results depend on the processing

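The number of the 7 genes called moved with the setting. In HepG2, where 2 were called, it was 5 with the expression set as a term, 0 at an adjusted p under 0.05, and between 0 and 2 with a library left out. In Huh7, where 0 were called, it was 2 with the expression set as a term and 0 in the other settings. Over both cell lines, where 2 were called, it was 6 with the expression set as a term, 1 with libraries rescaled to a common sum, 1 with the replicate block, 1 at a log2 fold change of at least 1, 0 at an adjusted p, and between 1 and 3 with a library left out. Deviations from the group means were correlated between same-numbered libraries of 2 groups. The correlation was 0.80 between Huh7 WT and Huh7 SR, so the replicate numbers paired the Huh7 libraries. It was 0.12 between HepG2 WT and HepG2 SR, and between -0.56 and -0.04 across the cell lines. The main fit did not use the Huh7 pairing, which the Huh7 differences between libraries of like expression follow. The replicate block changed no other count of members called, and moved the genes called among all tested to 328 in HepG2, 234 in Huh7 and 516 over both cell lines. INSIG1 in HepG2 was -0.03 with the expression set as a term. With a library left out, HepG2 values ran from -0.48 to 0.92 for FDFT1, from -0.68 to 0.98 for SQLE and from -0.03 to 3.2 for INSIG1. Huh7 values ran from -0.34 to 1.29 for IDI1, from -0.02 to 0.55 for SQLE, from -0.11 to 0.94 for DHCR7 and from -1.57 to 3.0 for INSIG1, and the median of the 7 in Huh7 from -0.02 to 0.94. SQLE over both cell lines ran from -0.2 to 0.63. Of 503 values of named genes under alternatives, 428 kept their direction and their side of the threshold. Another 50 lost a call, 13 gained one and 12 changed direction, and the cause was not tested. The 428 include results that were not called and stayed so. They also include fold changes of 1 cell line with a library of the other left out, which cannot move. Genes called among all tested numbered 504 in HepG2 with a filter at 0.1 FPKM, 1300 in Huh7 and 1283 over both cell lines with the expression set as a term, and 124 in Huh7 fitted alone. With a library left out they ran from 57 to 1749 in HepG2, from 154 to 818 in Huh7 and from 193 to 1277 over both. Adjustment over all genes left 0 in each. With 2 libraries per group and unknown depth, differences below the spread between libraries were not detectable.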

Other observations

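With the expression set as a term, further genes of the sterol arm were called higher in SR over both cell lines. They were TM7SF2, a sterol reductase, with a log2 difference of 0.91 (standard error 0.23), and NSDHL, a sterol dehydrogenase, at 0.54 (standard error 0.22). FDPS of the mevalonate arm, at 0.95 (standard error 0.24), was called too. In Huh7, that fit also called SCARB1, the HDL receptor, higher at 0.89 (standard error 0.34) and LIPA, the lysosomal lipase that frees cholesterol from LDL, lower at -0.75 (standard error 0.30). The adjusted p of each was between 0.533 and 0.572 from limma. These genes were not called in the model of 4 group means. TM7SF2 overlaps VPS51 and reads may have been split between them.

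Between the WT groups, the 1 pathway gene called was FNTA, a subunit of the enzymes that attach isoprenoids to proteins, at a log2 difference of 1.07 of Huh7 over HepG2 from limma. Its level was 13.4 and 17.7 FPKM in HepG2 WT, against 24.7 and 45.5 FPKM in Huh7 WT.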
